A study of Mus musculus with 4 samples.

Results

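The loci of 9 mouse genes of the YAP and TAZ pathway were examined in an ATAC-seq experiment, which measures how open chromatin is from the number of reads that the Tn5 transposase releases at each place. The genes were Yap1, Wwtr1, Tead1, Lats2, Ccn1, Ccn2, Ankrd1, Amotl2 and Axl. A member was any ATAC-seq peak that overlapped the span from 10 kb upstream of a gene to 10 kb past its end, and 132 of the 128055 peaks in the table met this rule. Of these, 12 were promoter peaks, within 1 kb of the start site of a protein-coding transcript of the gene. A further 94 lay in the gene body, 6 upstream and 20 downstream. Yap1 had 15 peaks, Wwtr1 23, Tead1 52, Lats2 11, Ccn1 5, Ccn2 5, Ankrd1 5, Amotl2 6 and Axl 10.

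The cells were mesenchymal stem cells (MSCs) from the limb bones of wild-type C57BL/6N male mice aged 3 to 5 months. They were sorted as CD45-/Ter119-/Sca-1+/CD140a+ after a first culture in hypoxia that all groups shared. The sorted population was then split, with a part kept at 2% O2 (hypoxia, 2 libraries) and a part moved to 21% O2 (normoxia, 2 libraries). The study describes the replicates as independent experiments. The comparison asks how the oxygen level changes chromatin accessibility in these cells. The genes were chosen by their role with earlier values of this same comparison known, and the peaks were drawn on these reads, so fold changes, false discovery rates (FDR) and calls are given below as a description of the 4 libraries. The coding genes Hnrnpul1, Rpp30 and Gm49361 reach into the spans of Axl, Ankrd1 and Lats2, and position does not tell which of the neighbours a peak serves.

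In the Hippo pathway, LATS kinases phosphorylate the co-activators YAP (Yap1) and TAZ (Wwtr1) and keep them out of the nucleus. When the kinases are idle, as on a stiff substrate or in well-spread cells, YAP and TAZ enter the nucleus and bind DNA through TEAD factors, often beside AP-1. Their best-known targets are Ccn1 and Ccn2, which encode secreted matricellular proteins of the CCN family, and Ankrd1, which encodes an ankyrin-repeat protein. Lats2 and Amotl2 are targets that also restrain YAP. In mesenchymal cells the pathway is known for coupling the matrix and cell shape to the choice between bone and fat fates.

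The deposited signal of a peak is its share of the library's reads, as reads times 10000000 over the library's total. It was not divided by peak width, so levels are compared between genes only as signal per kb. The libraries held 26680936 to 29965523 reads. The peaks of the nuclear genome took 49.2% and 53.2% of the hypoxia reads, against 31.0% and 35.2% of the normoxia reads, and the mitochondrial peaks took 7.77% and 9.13% against 1.50% and 2.34%. As deposited, the median peak of the whole table lay 0.44 lower in normoxia on the log2 scale. It lay at -0.00 after relative log expression (RLE) scaling, which sets the median ratio of the peaks to 1 between libraries and was used for the tests. It lay at 0.26 when all libraries were given an equal total over peaks and at -0.00 after cyclic loess, which removes trends with level. A log2 change below is normoxia minus hypoxia after RLE scaling, given ± its SE from the limma fit on log2(value + 1), and a call means an adjusted p (FDR) under 0.01 over all peaks. An exact permutation test of 2 against 2 libraries cannot give a p under 0.333. In these bulk libraries, fewer cells with an open site and less opening per cell cannot be told apart.

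All 10 MSC marker genes looked up had a promoter peak. Of 17 such peaks 4 were called lower in normoxia, at Cd44, Col1a1, Itgb1 and Ly6a, which is 23.5% beside 16.7% of all promoter peaks, and none was called higher. Ly6a, the gene of the Sca-1 antigen used in the sort, had 3 promoter peaks. The strongest had a signal of 64.4 and 82.6 (hypoxia) against 41.6 and 51.1 (normoxia) and was not called, with a log2 difference of -0.18, and the called peak was a weak hypoxia-only peak with 13.1 and 12.2 (hypoxia) against 3.37 and 1.67 (normoxia). Of 10 blood and endothelial markers, Ptprc, Itgam, Cd79a, Cd3e, Hba-a1 and Cdh5 had no promoter peak. The summed signal of the remaining 4 genes came to 99.8 and 105 for hypoxia, against 64.1 and 92.8 for normoxia. The part of these marker differences in the values below was not tested.

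Of the 132 peaks, 12 were called lower in normoxia, against 4.57% of all peaks, and 0 were called higher, against 1.77% of all peaks. At an unadjusted p under 0.05, limma put 27 peaks lower and 9 higher, beside 21576 and 16025 of all 128055 peaks. edgeR on the reads recovered from the signal called 15 lower (5.7% of all peaks) and 1 higher (2.54%), and DESeq2 called 5 lower (1.51%) and 0 higher (0.186%). The called peaks were 2 at Ccn1, 3 at Amotl2, 3 at Yap1, 3 at Tead1 and 1 at Axl. Ccn2, Ankrd1, Wwtr1 and Lats2 had none. All calls but that at the Yap1 promoter lay outside the promoters of the 9 genes, where 11 of 120 peaks were called lower and 0 higher. The called Axl peak among these also covers the promoter of Hnrnpul1. Of the peaks outside the promoter of any coding gene, a narrower set, 2.64% were called lower and 1.98% higher.

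The calls rested on both hypoxia libraries and on the scaling. Without either hypoxia library limma called no peak at all in the table. The median log2 change of the members was then -0.06 without hypoxia library 1 and -0.07 without library 2, beside -0.02 over all peaks in both. Plain eBayes, without a trend and without robust weights, also called 0. It put 20 members lower and 7 higher at an unadjusted p under 0.05, beside 14395 and 14916 of all 128055 peaks. Without scaling 39 members were called lower (24% of all peaks) and 0 higher (0.391%). With equal totals 5 were called lower (0.837%) and 6 higher (6.84%), and with cyclic loess 10 lower (1.31%) and 5 higher (1.42%). The 5 higher were the promoter peaks of Ccn1, Ccn2 and Amotl2, the inner Lats2 promoter and the intronic Tead1 domain. The median log2 fold change of the 132 peaks was -0.07 after RLE scaling, beside -0.00 over all peaks.

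The peaks also carried the peak caller's own assignment, and 18 of the 132 were assigned to hypoxia only, against 6.84% of all peaks. They were 2 at Ccn1, 2 at Amotl2, 2 at Yap1, 1 at Wwtr1, 9 at Tead1 and 2 at Axl. Since their edges were drawn where the reads of the conditions differed, they had to differ, and the 5 of them that were called are no support for a change. Of the 114 peaks assigned to both conditions, 7 were called lower (4.31% of all such peaks) and 0 higher (1.89%). Touching peaks were also merged to a single region, a step added after the data were seen, which leaves fewer regions than the 132 peaks. Of these, 7 at the 9 genes were called lower (5.74% of all regions) and 1 higher (2.18%), a weak Wwtr1 intronic region. The Axl region at chr7:25779801-25794000, which holds the promoter, was called lower only after merging, at -0.38 ± 0.10 (limma FDR 0.0050). The merged Ccn1 region of 22300 bases was called, with a log2 change of -0.27 ± 0.07, while the merged Amotl2 region, at -0.19 ± 0.07, was not (limma FDR 0.07), so all 3 Amotl2 calls were lost. Many of the peaks were small. Of the 132 peaks, 25 had a mean signal under 5, and a Yap1 peak of 100 bases held no read in any library.

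The groups did not overlap, with both normoxia libraries below both hypoxia libraries, at 92 of the 132 peaks as deposited (59.5% of all peaks) and at 48 after RLE scaling (29.6%). Normoxia lay above hypoxia without overlap at 3 peaks as deposited (6.94%) and at 23 after RLE scaling (27.4%). The counts of both directions moved with the scaling.

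**Figure D1:**
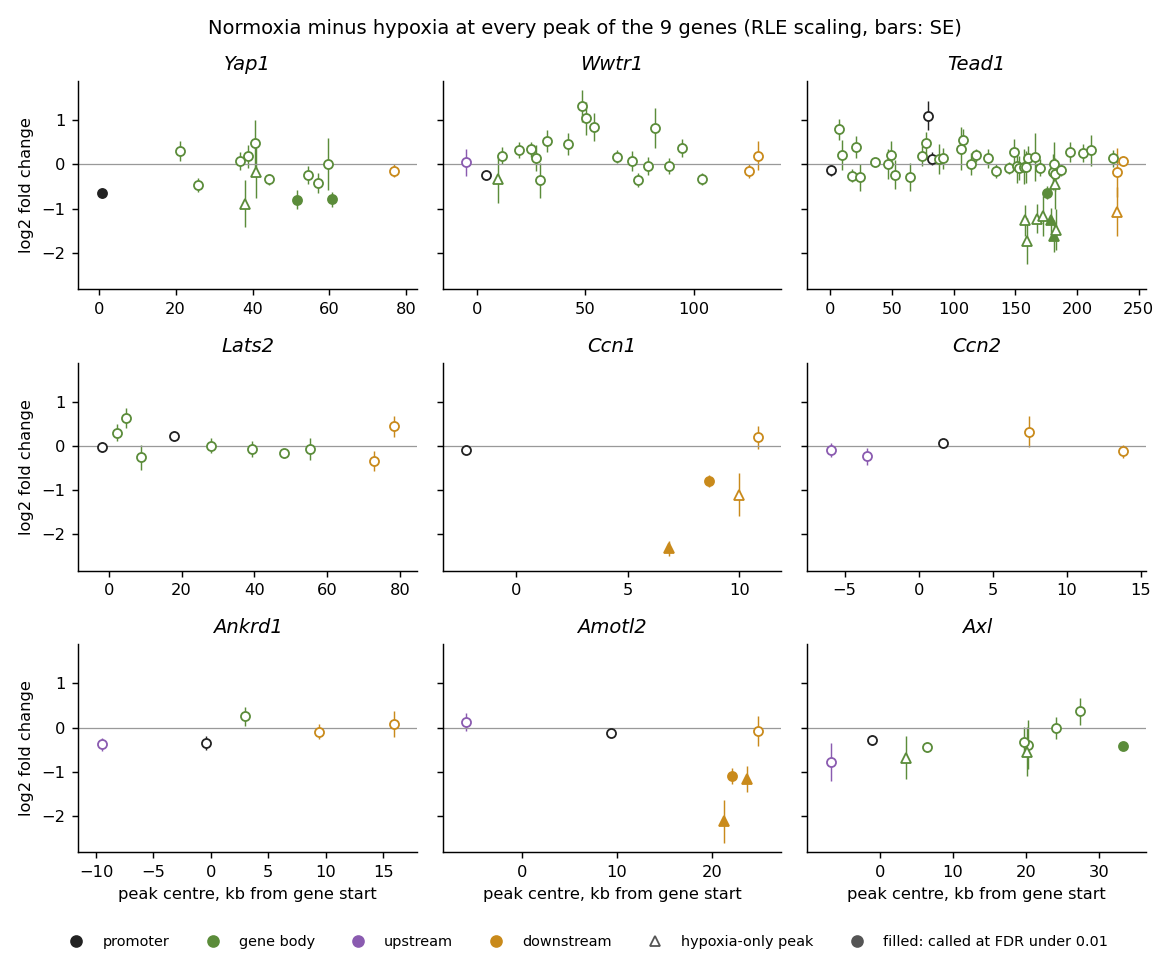
Log2 fold change of normoxia over hypoxia (vertical axis, RLE scaling, bars show the SE) at every member peak against its distance in kb from the gene start (horizontal axis), with 1 panel per gene. The called peaks sit past the ends of Ccn1 and Amotl2, in the last part of Tead1, in Yap1 and at the far end of Axl, all of them below 0.

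Of the 12 promoter peaks, 1 was called lower, that of Yap1, against 16.7% of all promoter peaks, and 0 were called higher, against 0.442%. Limma put 4 lower and 2 higher at an unadjusted p under 0.05, beside 7791 and 686 of all 17661 promoter peaks. As deposited, 11 of the 12 had both normoxia libraries below both hypoxia libraries, a share to read beside the 86.1% of all promoter peaks. The median log2 fold change was -0.10 for these 12 and -0.27 for all promoter peaks.

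The 12 promoter peaks were 900 to 23800 bases wide, so their signal per kb also depends on where the edges were drawn. Per kb of peak, the promoter of Lats2 gave the highest mean signal in hypoxia, at 77.2 ± 1.23 (SD, n = 2). Ccn1 followed at 61.1 ± 4.07, Amotl2 at 52.4 ± 0.875, Ccn2 at 49.6 ± 0.391 and Yap1 at 41.7 ± 2.21. Wwtr1 at 38.5 ± 3.41, Ankrd1 at 38.0 ± 5.11 and the main Tead1 promoter at 37.9 ± 2.68 lay close together. Each of the neighbours Yap1 and Wwtr1, Wwtr1 and Ankrd1, and Ankrd1 and Tead1 overlapped in their 2 libraries. Axl stood at 24.9 ± 1.49, and the inner promoters of Lats2 and Tead1 at 16.0 ± 0.380, 15.2 ± 2.08 and 5.81 ± 2.34. In normoxia Lats2 at 54.7 ± 0.507 and Ccn1 at 41.3 ± 2.50 kept the top 2 ranks, and Yap1, at 19.1 ± 0.261, went from rank 5 to rank 8. Ccn2, at 37.0 ± 0.726, stood above Amotl2, at 34.8 ± 2.45, where the order in hypoxia was the reverse. Their normoxia libraries nearly met, at 37.54 and 36.51 for Ccn2 and 33.04 and 36.50 for Amotl2.

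**Figure D2:**
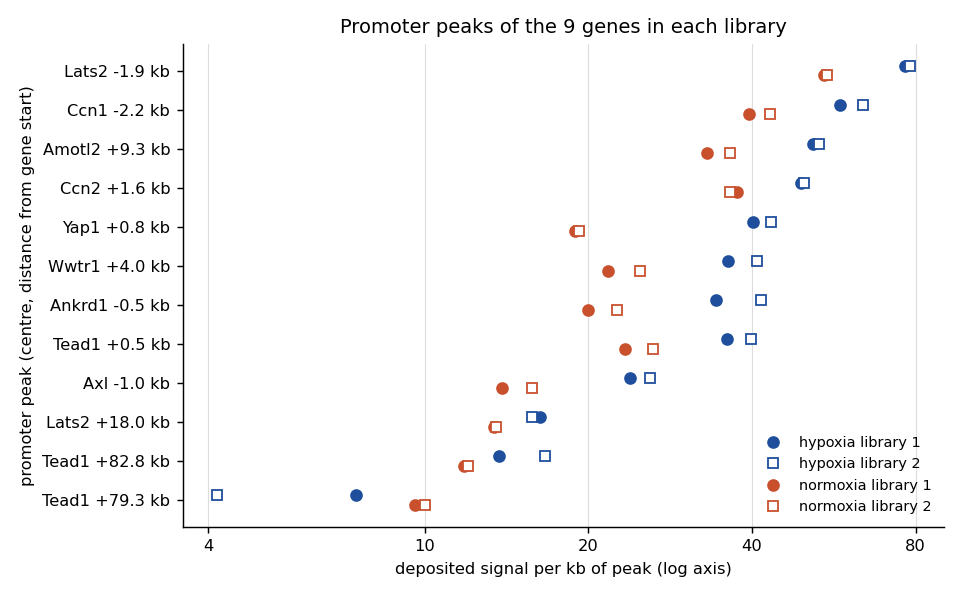
Deposited signal per kb of peak (horizontal log axis) of the 12 promoter peaks in each of the 4 libraries, ordered from the top by their mean in hypoxia and labelled with the distance of the peak centre from the gene start. In 11 of the 12 both normoxia libraries lie to the left of both hypoxia libraries, and the exception is the weak Tead1 promoter in the bottom row.

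Yap1 encodes the co-activator YAP. Its promoter peak, at chr9:8001201-8006400 on mm10, covers the first exon with its untranslated part and had a signal of 209 and 225 (hypoxia) against 98.2 and 100.1 (normoxia). Both normoxia libraries lay far below both hypoxia libraries. It fell by 0.65 on the log2 scale (SE 0.12, limma FDR 0.00035), and it was lower under all 4 scalings, although the call was lost with equal totals and with cyclic loess (limma FDR 0.02 and 0.053). The promoter just upstream of its start site is shown because this was the single promoter of the 12 that was called. The capitals mark a match to the TEAD motif GGAATG at -141 from the start.
Yap1, chr9:8004597-8004846, minus strand: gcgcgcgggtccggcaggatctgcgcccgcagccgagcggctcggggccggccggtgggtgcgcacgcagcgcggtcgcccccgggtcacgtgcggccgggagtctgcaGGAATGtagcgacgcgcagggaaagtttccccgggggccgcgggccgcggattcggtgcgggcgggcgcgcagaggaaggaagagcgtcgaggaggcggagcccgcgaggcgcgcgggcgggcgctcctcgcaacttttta

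In the Yap1 gene body, the intronic peak at chr9:7943301-7944800, 60546 bases past the start, had a signal of 64.8 and 75.1 (hypoxia) against 24.0 and 34.0 (normoxia). It fell as well, with a log2 change of -0.79 ± 0.17 and limma FDR 0.0017. The peak at chr9:7952501-7953800, which touches an exon, gave 33.3 and 37.1 (hypoxia) against 14.6 and 13.7 (normoxia), and its log2 change of -0.80 ± 0.21 stood just inside the threshold at limma FDR 0.0094. The 3 called Yap1 peaks thus lay between -0.80 and -0.65 on the log2 scale. The strongest Yap1 peak outside the promoter, at chr9:7957101-7963700, had a signal of 126 and 139 (hypoxia) against 64.8 and 86.4 (normoxia) and was not called, with a log2 change of -0.34 ± 0.13. Relative to the promoter peak of the same library, it gave 60.2% and 61.9% (hypoxia) against 66.0% and 86.3% (normoxia). The other 11 Yap1 peaks were not called.

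Wwtr1 encodes TAZ, the paralog of YAP. Its promoter peak, at chr3:57566401-57577400, spans 11000 bases and had a signal of 397 and 449.8 (hypoxia) against 239 and 274 (normoxia). The groups did not overlap, but the log2 change of -0.24 ± 0.09 was not called (limma FDR 0.08), and it turned positive with equal totals and with cyclic loess. Its strongest intronic peak, at chr3:57470001-57474100, gave 114 and 117 (hypoxia) against 66.3 and 64.7 (normoxia) with a log2 change of -0.33 ± 0.13, again not called. Of the 23 Wwtr1 peaks, 15 had a positive fold change after RLE scaling and the median was 0.18, beside -0.29 as deposited. A weak intronic peak of 500 bases at chr3:57527001-57527500, named here after its values were seen, had 3.54 and 3.74 (hypoxia) against 8.62 and 7.01 (normoxia). With both normoxia libraries above both hypoxia libraries and a log2 change of 1.32 ± 0.35, it stood just outside the threshold at limma FDR 0.011.

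Tead1 encodes a DNA-binding partner of YAP and TAZ. Its main promoter peak, at chr7:112678101-112681500, had a signal of 122 and 135 (hypoxia) against 79.5 and 89.4 (normoxia) and a log2 change of -0.13 ± 0.13, which was not called. A second promoter, 82782 bases into the gene at chr7:112760101-112764100, gave 54.8 and 66.6 (hypoxia) against 47.2 and 48.1 (normoxia) with 0.13 ± 0.15, and its normoxia and hypoxia libraries overlapped after RLE scaling. The weak promoter beside it, at chr7:112758201-112759100, was the only promoter of the 12 with higher signal in normoxia as deposited, at 6.72 and 3.74 (hypoxia) against 8.62 and 9.01 (normoxia). Its log2 change of 1.11 ± 0.34 was not called (limma FDR 0.025), and was positive under all 4 scalings and called with equal totals (limma FDR 0.0066). The strongest Tead1 peak, an intronic domain of 11800 bases at chr7:112709601-112721400, had 264 and 283 (hypoxia) against 196 and 208 (normoxia) and a log2 change of 0.04 ± 0.10, which was not called, was negative as deposited and was called higher with cyclic loess (limma FDR 0.002).

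The lower peaks of Tead1 lay in a cluster toward its 3' end. The peak at chr7:112851701-112857800, 175432 bases past the start, had a signal of 95.5 and 85.7 (hypoxia) against 42.0 and 40.7 (normoxia). It fell, with a log2 change of -0.64 ± 0.15 and limma FDR 0.004. The hypoxia-only peak that touches it, at chr7:112857801-112859100, gave 21.9 and 20.1 (hypoxia) against 4.50 and 7.34 (normoxia), with a log2 change of -1.27 ± 0.28. The next, at chr7:112860101-112860900, gave 14.9 and 10.2 (hypoxia) against 2.25 and 2.34 (normoxia), with -1.63 ± 0.36. As a share of the main promoter peak in the same library, the first was 78.0% and 63.3% (hypoxia) against 52.8% and 45.5% (normoxia). It was named because it was called low in these libraries, so its share is no support for a change. The touching peak went from 17.9% and 14.8% to 5.66% and 8.21%, but its edges were drawn on these reads, so this share had to fall. In all, 9 of the 52 Tead1 peaks were hypoxia-only, while 26 had a negative and 26 a positive fold change.

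Lats2 encodes a kinase that inactivates YAP and TAZ. Its outer promoter peak, at chr14:57758901-57761700, had a signal of 214 and 219 (hypoxia) against 152 and 154 (normoxia) and the inner one, at chr14:57733701-57747100, had 218 and 211 (hypoxia) against 179.5 and 181 (normoxia). Neither was called, with log2 changes of -0.02 ± 0.11 and 0.23 ± 0.11. As deposited both lay lower in normoxia, and under equal totals and cyclic loess both were higher, with the inner one called (limma FDR 0.00091 and 0.00018). Its strongest other peak, the intronic domain at chr14:57704701-57715800, gave 251 and 269.9 (hypoxia) against 168 and 165 (normoxia) with -0.17 ± 0.11, and none of the 11 Lats2 peaks was called after RLE scaling.

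Ccn1 encodes a matricellular protein and is a classical YAP target. Its promoter peak was a domain of 17000 bases, chr3:145643701-145660700, that covers the whole gene of 3006 bases. It had a signal of 989 and 1087 (hypoxia) against 672 and 733 (normoxia). The groups did not overlap as deposited, but the log2 fold change after RLE scaling was -0.08 ± 0.08 and was not called. It was called lower as deposited, at -0.56 (limma FDR 0.0023), and higher with cyclic loess, at 0.50 (limma FDR 1.7e-06), and it was 0.21 and not called with equal totals.

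Past the 3' end of Ccn1 the signal differed more. The hypoxia-only peak at chr3:145642601-145643700, which touches the domain 6831 bases past the gene start, gave 104 and 116 (hypoxia) against 12.0 and 19.0 (normoxia). This was 7.08-fold between the means, the largest fold at Ccn1, with a log2 change of -2.32 ± 0.18. The next peak, at chr3:145640101-145642600, was assigned to both conditions and had 120.0 and 152 (hypoxia) against 51.3 and 60.4 (normoxia). It fell, with a log2 change of -0.79 ± 0.13 and limma FDR 0.00021. Both were lower under all 4 scalings. The edges of the hypoxia-only peak were drawn on these reads. Its fold, its fall under the scalings and its share below thus had to differ and are no support for a change. Each was also set against the promoter domain of the same library, a ratio that no library-wide factor moves. The first went from 10.5% and 10.7% in hypoxia to 1.78% and 2.60% in normoxia, and the second from 12.1% and 14.0% to 7.64% and 8.25%. The second was named because it was called low in these libraries, and it touches the hypoxia-only peak. Its ratio is thus no support for a change either. The remaining hypoxia-only peak of 200 bases held a signal of 3.18 and 2.72 (hypoxia) against 0.750 and 0.334 (normoxia), and the outermost peak, with 12.0 and 15.3 (hypoxia) against 11.6 and 11.0 (normoxia), was not called.

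The Ccn1 promoter and the central 300 bases of the 2 downstream peaks are shown, since Ccn1 is the CCN gene whose flank carried the calls. Capitals mark the TEAD motif (GGAATG, or CATTCC on the other strand) in the promoter, at -103, and the AP-1 motif (TGACTCA, or TGAGTCA on the other strand) in the peaks. The downstream peak assigned to both conditions held 2 AP-1 matches, and the hypoxia-only centre held neither motif.
Ccn1, chr3:145649986-145650235, minus strand: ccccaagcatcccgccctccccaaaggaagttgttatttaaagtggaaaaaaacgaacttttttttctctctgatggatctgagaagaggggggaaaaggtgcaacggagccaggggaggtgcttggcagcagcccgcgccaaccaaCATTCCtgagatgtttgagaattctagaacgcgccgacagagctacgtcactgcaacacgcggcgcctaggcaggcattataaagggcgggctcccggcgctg
Ccn1, chr3:145641201-145641500, plus strand: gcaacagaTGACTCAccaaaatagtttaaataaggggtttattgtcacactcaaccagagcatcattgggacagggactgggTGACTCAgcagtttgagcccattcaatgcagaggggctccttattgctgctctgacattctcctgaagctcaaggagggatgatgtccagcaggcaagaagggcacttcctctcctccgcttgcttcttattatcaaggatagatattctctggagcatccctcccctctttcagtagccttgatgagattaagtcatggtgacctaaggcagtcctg
Ccn1, chr3:145643001-145643300, plus strand: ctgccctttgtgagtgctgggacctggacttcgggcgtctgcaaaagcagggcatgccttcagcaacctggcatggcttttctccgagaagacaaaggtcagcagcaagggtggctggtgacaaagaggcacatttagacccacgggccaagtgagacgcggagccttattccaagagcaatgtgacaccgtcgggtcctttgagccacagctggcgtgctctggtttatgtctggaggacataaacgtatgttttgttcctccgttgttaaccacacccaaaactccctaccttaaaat

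**Figure D3:**
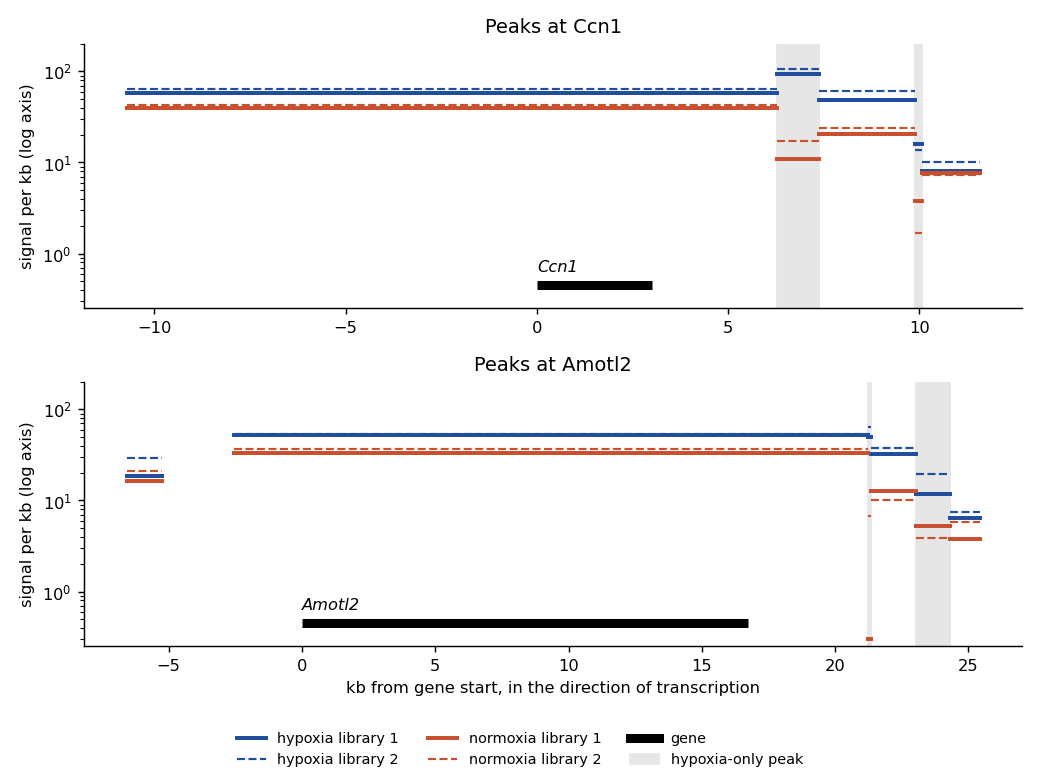
Deposited signal per kb (vertical log axis) of each peak at Ccn1 and Amotl2, drawn over the extent of the peak as distance in kb from the gene start (horizontal axis), for the 4 libraries, with a single value per peak and library drawn flat and a signal of 0 drawn at the foot of the axis. The hypoxia-only peaks, whose edges were drawn on these reads, are shaded, and the peak assigned to both conditions beside them went from 120.0 and 152 to 51.3 and 60.4 at Ccn1 and from 54.5 and 63.2 to 21.4 and 17.4 at Amotl2, before division by width.

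Ccn2 encodes the matricellular protein most often used as a YAP reporter. Its promoter peak, at chr10:24593701-24600400, had a signal of 330.2 and 334 (hypoxia) against 251 and 245 (normoxia), with a log2 change of 0.06 ± 0.10. It was not called after RLE scaling. It was -0.42 as deposited, and was called higher with equal totals, at 0.35, and with cyclic loess, at 0.48 (limma FDR 0.0085 and 0.0007). The upstream peaks, at chr10:24588701-24590300 and chr10:24591001-24592900, gave 63.0 and 70.7 (hypoxia) against 44.2 and 45.7 (normoxia), and 34.0 and 33.7 (hypoxia) against 21.7 and 19.4 (normoxia), with log2 changes of -0.09 ± 0.15 and -0.23 ± 0.20. The strongest downstream peak, at chr10:24607801-24610600, gave 63.3 and 74.1 (hypoxia) against 44.6 and 45.7 (normoxia), with -0.12 ± 0.15. None of the 5 Ccn2 peaks was called, and the summed signal over the 5 was 71.8% of hypoxia in normoxia. Over the 5 Ccn1 peaks it was 60.4%, and over all nuclear peaks 64.7%. The difference between the 2 genes was not tested.

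The centres of the 2 upstream Ccn2 peaks are shown because they hold both kinds of motif near a target gene whose peaks were not called. The outer one held 2 TEAD matches and 1 AP-1 match, and the inner one 1 AP-1 match.
Ccn2, chr10:24589351-24589650, plus strand: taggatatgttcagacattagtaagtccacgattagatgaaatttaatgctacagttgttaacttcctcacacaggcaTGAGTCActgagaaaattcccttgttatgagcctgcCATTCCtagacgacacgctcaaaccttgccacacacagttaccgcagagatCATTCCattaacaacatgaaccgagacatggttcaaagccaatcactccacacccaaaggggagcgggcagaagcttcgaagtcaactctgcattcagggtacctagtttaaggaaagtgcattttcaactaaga
Ccn2, chr10:24591801-24592100, plus strand: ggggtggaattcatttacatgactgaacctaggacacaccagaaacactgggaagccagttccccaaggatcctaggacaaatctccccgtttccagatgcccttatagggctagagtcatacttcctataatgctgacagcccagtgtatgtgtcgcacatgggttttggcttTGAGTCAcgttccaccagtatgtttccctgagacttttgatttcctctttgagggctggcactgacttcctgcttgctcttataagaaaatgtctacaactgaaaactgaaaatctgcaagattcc

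Ankrd1 encodes an ankyrin-repeat protein of muscle and stressed cells. Its promoter peak, at chr19:36119501-36121600, had a signal of 72.2 and 87.4 (hypoxia) against 42.0 and 47.4 (normoxia), and the upstream peak, at chr19:36128401-36130800, had 85.3 and 74.8 (hypoxia) against 43.5 and 44.4 (normoxia). The groups did not overlap in either peak. The log2 changes of -0.35 ± 0.15 and -0.38 ± 0.15 were negative under all 4 scalings but not called (limma FDR 0.11 and 0.088). The upstream peak was as strong as the promoter peak, at 118% and 85.6% of it (hypoxia) and 104% and 93.7% (normoxia).

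Amotl2 encodes a junction protein that binds and restrains YAP. Its promoter peak was a domain of 23800 bases, chr9:102714101-102737900, with a signal of 1234 and 1263 (hypoxia) against 786 and 869 (normoxia). The log2 change of -0.12 ± 0.07 was not called. It was called lower as deposited, at -0.59 (limma FDR 0.0011), and higher with cyclic loess, at 0.49 (limma FDR 8.0e-07), and it was 0.17 and not called with equal totals. The called peaks lay past the 3' end, and their calls were lost when touching peaks were merged. The peak at chr9:102738001-102739700, assigned to both conditions, gave 54.5 and 63.2 (hypoxia) against 21.4 and 17.4 (normoxia). It fell, with a log2 change of -1.10 ± 0.19 and limma FDR 0.00019, and its share of the promoter domain went from 4.42% and 5.01% in hypoxia to 2.72% and 2.00% in normoxia. This peak was named because it was called low in these libraries, so its share is no support for a change. The hypoxia-only peaks on its flanks, at chr9:102739701-102741000 and chr9:102737901-102738000, gave 15.2 and 25.5 (hypoxia) against 6.75 and 5.01 (normoxia), and 4.95 and 6.46 (hypoxia) against 0 and 0.667 (normoxia). The latter is a strip of 100 bases with 0 and 2 reads in normoxia.

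The centres of the 2 wider downstream Amotl2 peaks are shown for comparison with those of Ccn1. The hypoxia-only centre held 2 TEAD matches, and the other centre held neither motif.
Amotl2, chr9:102738701-102739000, plus strand: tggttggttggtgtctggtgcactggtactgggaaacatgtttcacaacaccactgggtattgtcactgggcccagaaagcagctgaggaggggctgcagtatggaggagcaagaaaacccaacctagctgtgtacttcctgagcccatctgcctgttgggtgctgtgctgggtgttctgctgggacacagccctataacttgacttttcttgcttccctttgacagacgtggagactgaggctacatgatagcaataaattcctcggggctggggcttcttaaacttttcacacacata
Amotl2, chr9:102740201-102740500, plus strand: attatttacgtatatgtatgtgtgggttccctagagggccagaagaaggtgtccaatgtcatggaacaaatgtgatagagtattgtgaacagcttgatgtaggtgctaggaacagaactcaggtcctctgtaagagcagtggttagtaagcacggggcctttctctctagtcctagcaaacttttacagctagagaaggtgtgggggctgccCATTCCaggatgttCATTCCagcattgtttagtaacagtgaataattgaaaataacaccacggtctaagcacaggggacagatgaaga

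Axl encodes a receptor tyrosine kinase. Its promoter peak, at chr7:25785501-25794000, had a signal of 203 and 221 (hypoxia) against 118 and 134 (normoxia) and a log2 change of -0.27 ± 0.11, which was not called. When touching peaks were merged, the region that holds this promoter was called lower. The intronic peak at chr7:25779801-25784800, named here after its values were seen, had 197 and 237 (hypoxia) against 112 and 117 (normoxia), with -0.43 ± 0.11, and stood just outside the threshold at limma FDR 0.010. The only Axl peak called, at chr7:25752501-25758600, covers the last exon of Axl and also the promoter of Hnrnpul1, which encodes an RNA-binding protein. It had a signal of 535 and 567 (hypoxia) against 266 and 331 (normoxia) and fell, with a log2 change of -0.41 ± 0.09 and limma FDR 0.0029, but the change was 0.07 with cyclic loess.

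Summed over its peaks, each gene's signal in normoxia was a share of that in hypoxia that ran from 54.2% at Yap1 and 55.5% at Axl to 70.1% at Tead1, 71.8% at Ccn2 and 73.4% at Lats2. Amotl2 gave 64.3%, Ankrd1 62.0% and Wwtr1 69.7%. The sums cover 9.70 kb of peaks at Ankrd1 and up to 105 kb at Tead1, and the same peaks are summed in all 4 libraries.

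**Figure D4:**
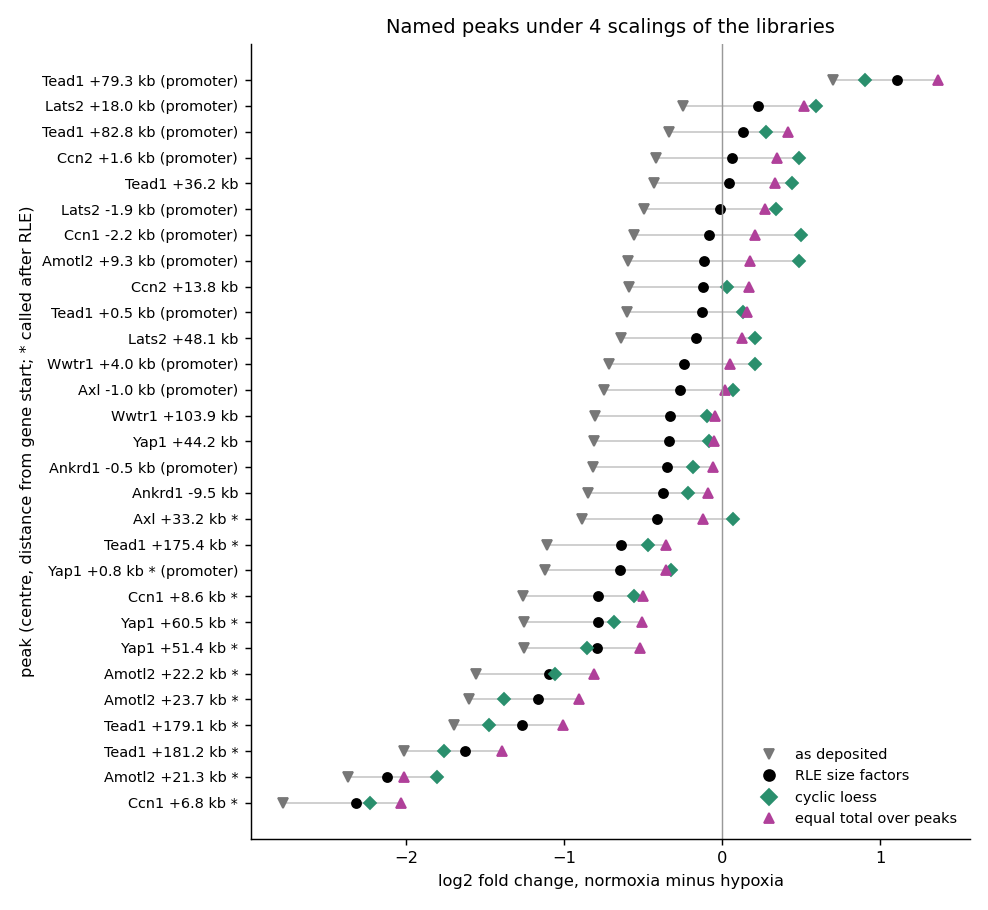
Log2 fold change of normoxia over hypoxia (horizontal axis) of the 29 peaks named by rule (vertical axis), under 4 ways of scaling the libraries. Of the 12 peaks called lower after RLE scaling (asterisks), 11 lie left of 0 under all 4 scalings and the Axl peak under 3 of them. Of the 17 others 4 lie left of 0 under all 4. The 12 were picked as low in these same libraries, and 5 of them are hypoxia-only peaks. Their place left of 0 is thus no support for a change.

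The other genes of the pathway were taken from lists of 4 CCN genes, 22 Hippo pathway genes and 18 YAP and TAZ target genes, all of which had a promoter peak. Together they had 63 promoter peaks, of which 12 were called lower (19.0%, beside 16.7% of all promoter peaks) and 0 higher. At an unadjusted p under 0.05 limma put 30 lower and 2 higher, beside 7791 and 686 of all 17661 promoter peaks. edgeR called 14 lower (5.7% of all peaks) and 0 higher, and DESeq2 5 (1.51%) and 0. Without either hypoxia library limma called none. The median log2 change was then -0.28 without hypoxia library 1 and -0.31 without library 2, beside -0.25 and -0.31 for all promoter peaks. As deposited limma called 43 lower, beside 10705 of all 17661 promoter peaks. With equal totals it called 2 lower (0.837% of all peaks) and with cyclic loess 1 (1.31%). The shares over all peaks, here and for edgeR and DESeq2, are no measure for promoter peaks. After RLE scaling limma called 16.7% of promoter peaks lower, against 4.57% of all peaks. The median log2 fold change of the 63 peaks was -0.27, that of all promoter peaks being -0.27.

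Among the CCN genes, Ccn3 fell, with a signal of 79.6 and 77.2 (hypoxia) against 27.0 and 34.0 (normoxia) and a log2 change of -0.87 ± 0.16, and Ccn4 fell, with 252 and 262 (hypoxia) against 124 and 147 (normoxia) and -0.44 ± 0.11 (limma FDR 0.00041 and 0.0058). Ccn5 and Ccn6 were not called. Among the 33 peaks of the Hippo genes 6 were called, at Amot, Mob1b, Ptpn14, Vgll4 and 2 of the 3 Taok3 promoter peaks. Amot encodes the angiomotin that binds YAP, and its promoter had a signal of 237 and 239 (hypoxia) against 82.8 and 129 (normoxia), with -0.72 ± 0.13. Among the 26 peaks of the target genes 4 were called, with Asap1, Dock5 and Gadd45a among them. The log2 changes of Ptpn14 and Gadd45a turned positive under some of the alternatives, to at most 0.06 and 0.0081. Dock5 encodes an activator of Rac. Its promoter had a signal of 157 and 148 (hypoxia) against 69.7 and 65.4 (normoxia), with a log2 change of -0.69 ± 0.13 (limma FDR 0.00062).

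**Figure D5:**
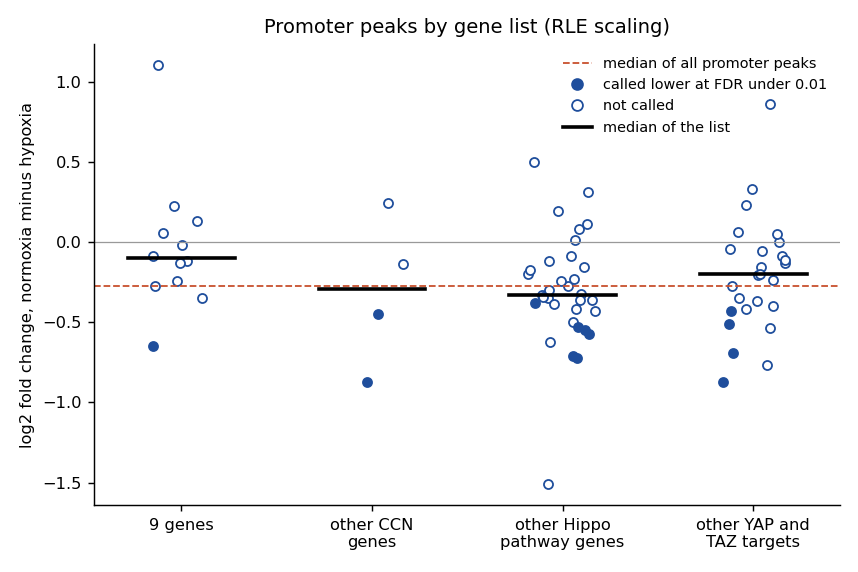
Log2 fold change of normoxia over hypoxia (vertical axis, RLE scaling) of the promoter peaks of the 9 genes and of the 3 lists of other pathway genes (horizontal axis), with the median of each list as a bar and that of all promoter peaks as a dashed line. The median of the 12 promoter peaks is -0.10 and that of all promoter peaks -0.27, and filled points are the peaks called lower.

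RefSeq promoter sequences, from 250 bases before to 50 after a start, were matched for 7 of the 9 genes in 9 windows. All 7 genes held the TEAD motif in a window. It stood at -103 at Ccn1, at -210 and -123 at Ankrd1, at -65 at Amotl2, at -141 at Yap1, at -233 at Axl, once in the stretch that both Wwtr1 windows share and at 5 bases past an inner start of Lats2. The other Lats2 window, at chr14:57734369-57734668, held none. The shares that follow count windows and not genes. Of all 32851 promoter windows 14.7% held the TEAD motif, 5.2% held the AP-1 motif and 1.63% a CArG box, the site of serum response factor, with both strands searched. In the central 300 bases of the member peaks outside promoters, 20 of 105 held the TEAD motif (19% beside 22.9% of 103304 such peaks), 14 the AP-1 motif (13.3% beside 17.3%) and 2 a CArG box (1.9% beside 1.72%). Matches to different motifs do not overlap in the windows shown. A match describes the letters and not a bound site.

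By the Euclidean distance of their RLE-scaled log2 values over the 4 libraries, the promoter peaks most like that of Ccn1 among 17660 were those of Dlc1 (0.0842), Pmepa1 (0.281) and Arid5b (0.307). Those most like that of Ccn2 were the peak shared by Rab26 and Traf7 (0.107) and the peaks of Bahcc1 (0.135) and Actn4 (0.151). The measure follows the level of a peak as well as its pattern.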

How the data were processed

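ATAC-seq libraries of 2 hypoxia and 2 normoxia MSC cultures were analysed from the deposited peak table. The authors used bowtie2 (genome mm10) for mapping, Picard to drop duplicates and chromstaR for peaks, the last in differential mode (bin 300, step 100, mapping quality 15), and gave a value per peak and library. Whether reads were shifted for the Tn5 cut is not given in the sources used here. Each deposited signal, called RPKM by the authors, was the peak's reads times 10000000 over the library total and was not divided by width, so whole reads were recovered for 100% of values (tolerance 0.001 read). Median reads per member peak were 39 to 56.5 per library, and counting error limits the weak peaks.

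The values were scaled by RLE, log2(value + 1) was fitted with limma 3.58.1 (R 4.3.3, trend and robust) over all 128055 peaks, and p-values were adjusted by Benjamini-Hochberg, with calls at FDR under 0.01. edgeR 4.0.16 and DESeq2 1.42.0 on recovered reads, other scalings, pseudocounts of 0.1 and 5, a minimum mean of 5, other spans, blocks, GC correction and left-out libraries were alternatives. On simulated counts at this design limma recovered 99% of 4-fold and 46% of 2-fold changes among 200 changed peaks, with 0 false calls. The changed peaks were drawn only from those above a minimum of reads, and equally many rose and fell. The simulation thus does not cover weak peaks or the choice between scalings.

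Genes came from GENCODE M21 and promoter sequences from RefSeq (GRCm38). Text names every promoter peak of the 9 genes, every called peak, the strongest other peak of each gene, and the peaks said to be chosen after their values were seen. The members, gene lists and tests were chosen with earlier results of these data known. The values of 1 gene of the target list are not reported here.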

Additional observations from a re-analysis of the deposited data

How the results depend on the processing

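Of the 29 peaks named by rule, all kept their direction and side of the threshold with a pseudocount of 5, edgeR, the replicate block, the GC correction, and both together. Members called lower numbered 12 (range over left-out libraries 0 to 11), 39 as deposited, 5 with equal totals, 0 with plain eBayes, 5 with DESeq2, 7 with a span of 2 kb, 7 with touching peaks merged and 7 over peaks assigned to both groups. The last 2 alternatives and the block with GC correction were added after seeing the data. Members called higher numbered 0, and 6 with equal totals (6.84% of all peaks). They numbered 5 with cyclic loess (1.42%), 2 with the replicate block (3.06%) and 3 at FDR under 0.05 (5.38%). A single member was called higher with a pseudocount of 5 (1.82%), a minimum mean of 5 (2.68% of the peaks kept) and edgeR (2.54%). The same held with touching peaks merged (2.18% of regions) and the replicate block with GC correction (2.88%). Other pathway promoters called lower numbered 12 (0 to 19 over left-out libraries), 43 as deposited, 2 with equal totals, 1 with cyclic loess, 0 with plain eBayes, 5 with DESeq2 and 25 at FDR under 0.05. Those called higher numbered 0, 3 with equal totals, 2 with cyclic loess and 1 with the replicate block with GC correction. Over all peaks 9.68% were called lower at FDR under 0.05, a share not taken over promoter peaks. The causes were not tested.

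The median log2 fold change of the members was -0.07, -0.50 as deposited, 0.20 with equal totals and 0.014 with cyclic loess. For their promoters it was -0.10, -0.58 as deposited, 0.19 with equal totals, 0.30 with cyclic loess and -0.039 with the GC correction, with or without the replicate block. Named peaks that reversed had these log2 fold changes. As deposited the Ccn2 promoter had -0.42, the inner Lats2 promoter -0.25, the Tead1 intronic domain -0.43 and the inner Tead1 promoter -0.34. With cyclic loess the values were 0.49 at the Amotl2 promoter, 0.067 at the called Axl peak, 0.066 at the Axl promoter, 0.50 at the Ccn1 promoter, 0.027 at the downstream Ccn2 peak, 0.21 at the Lats2 intronic domain, 0.34 at the outer Lats2 promoter, 0.13 at the Tead1 promoter and 0.20 at the Wwtr1 promoter. With equal totals they were 0.17 at the Amotl2 promoter, 0.018 at the Axl promoter, 0.21 at the Ccn1 promoter, 0.17 at the downstream Ccn2 peak, 0.12 and 0.27 at Lats2, 0.16 at Tead1 and 0.048 at Wwtr1. Over the left-out libraries, the outer Lats2 promoter ranged from -0.067 to 0.041 and the Ccn2 promoter from -0.020 to 0.15.

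The study split a sorted population between the conditions, but whether same-numbered libraries share such a population is not given. The deviations of same-numbered libraries correlated at 0.011 over all peaks. With 2 libraries per group this value can neither show nor exclude a pairing. With the replicate number as a block, 16 members were called lower, beside 6.62% of all peaks. With 2 libraries per group, 1 library left out leaves a group whose spread is assumed to be that of the other. Weak peaks limit the depth, since 25 members had a mean signal under 5.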

Other observations

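Wwtr1 held several weak intronic peaks whose signal was higher in normoxia after RLE scaling. The peaks at chr3:57521701-57522400, chr3:57525201-57525600 and chr3:57527001-57527500 had signals of 6.37 and 10.2, 3.54 and 3.74, and 3.54 and 3.74 in hypoxia, and of 14.6 and 8.34, 4.50 and 8.68, and 8.62 and 7.01 in normoxia. None was called by limma after RLE scaling of the separate peaks, and the last was called higher when touching peaks were merged (limma FDR 0.0084). These peaks were picked out after their values were seen. Of the 132 member peaks, 23 were at most 500 bases wide, and 11 of these were hypoxia-only. Of the 23, 1 was called, and their highest mean signal was 5.73. Over the whole table hypoxia-only peaks had a median width of 300 bases, beside 1000 for all peaks. The 11 thus cannot be read as a trait of these loci.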
